A study of Homo sapiens with 9 samples.

Results

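QKI-5 is the nuclear form of the RNA-binding protein Quaking. Its binding sites were examined in 55 genes that encode splicing factors, a list of named genes that was drawn up with earlier results of these data known. They comprised 13 genes of SR and TRA2 proteins, 15 HNRNP genes, 11 genes of the PTB, RBFOX2, ESRP, CELF, TIA and TARDBP regulators, 4 RBM genes, 8 genes of splice-site recognition factors and 4 genes of kinases and SR-related scaffolds. A gene was counted as bound when the centre of a QKI-5 peak lay on its strand within its span. By that rule 39 of the 55 genes held 297 peaks of the 24037 in the list, and 16 held none, so the description of the whole set as bound holds for 39 genes. Places within genes and distances to exons were also read from the peak centre unless stated, so a peak could cross an exon boundary.

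The libraries came from mesHMLE cells, which are HMLE cells (an immortalised line of human mammary epithelial cells) that have taken on a mesenchymal state after at least 14 days in medium with 2.5 ng/ml TGF-β1, and which were afterwards kept in that medium without added TGF-β1. QKI-5 was crosslinked to RNA with 600 mJ/cm2 of ultraviolet light and immunoprecipitated with a QKI-5 antibody, and the fragments were sequenced (HITS-CLIP). There were 7 immunoprecipitation libraries, 3 from the gel region of the QKI monomer and 4 from that of the presumed dimer, 1 of the latter made with another reverse transcriptase (SSIV), and 2 libraries of size-matched input RNA. All 9 came from the same line and treatment and were technical replicates, and the libraries were pooled before peaks were called. Each peak therefore had 1 height, a whole number for the pooled libraries, with no replicate error and no depth per library. No test between groups was possible. Where a share below carries a 95% Wilson interval, the interval covers counting error only and treats genes or peaks as independent. Neighbouring peaks can belong to 1 bound region (merging those within 100 nt left 174 of the 297), so intervals over peaks can be too narrow.

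An RNA-binding protein of the STAR family, QKI recognises an RNA hexamer that reads ACTAAC in the genome sequence and, bound in introns near an exon, changes whether that exon is included. SR proteins mostly promote exon inclusion from exonic enhancers, HNRNP proteins often promote skipping, and U2AF1, U2AF2 and SF1 mark the 3′ splice site and branch point. Many splicing factors control their own amount by switching an exon or intron that leads their mRNA into nonsense-mediated decay, the pathway that degrades mRNA with an early stop codon.

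The sequences that carry the hexamer are shown first, since they place the letters that QKI recognises inside the peaks of each gene. For each gene with an ACTAAC peak in an intron or coding exon of its canonical transcript (the transcript that GENCODE marks as representative), the tallest such peak was taken and the 12 tallest are printed in RNA sense from hg19. In order of height these were RBM5 at chr3:50141754-50141863 (+ strand, intron 8, height 303), SF1 at chr11:64543046-64543153 (- strand, intron 2, height 249), RBM6 at chr3:50053491-50053596 (+ strand, intron 6, height 192), HNRNPL at chr19:39329681-39329745 (- strand, intron 8, height 118), TIA1 at chr2:70452925-70452984 (- strand, intron 6, height 104) and RBM39 at chr20:34328595-34328745 (- strand, intron 2, height 70). The other 6 were LUC7L2 at chr7:139045539-139045588 (+ strand, intron 1, height 45), U2AF2 at chr19:56174495-56174750 (+ strand, intron 6, height 35), CELF1 at chr11:47534704-47534757 (- strand, intron 1, height 34), HNRNPH1 at chr5:179044424-179044531 (- strand, intron 9, height 29), RBFOX2 at chr22:36295845-36295918 (- strand, intron 2, height 29) and PTBP1 at chr19:807115-807267 (+ strand, intron 10, height 25). Capitals mark ACTAAC. PTBP1 and U2AF1 both reached 25 in their ACTAAC peak, and the PTBP1 peak was taken in alphabetical order.
RBM5: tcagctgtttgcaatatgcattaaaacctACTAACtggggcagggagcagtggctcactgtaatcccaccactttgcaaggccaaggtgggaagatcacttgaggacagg
SF1: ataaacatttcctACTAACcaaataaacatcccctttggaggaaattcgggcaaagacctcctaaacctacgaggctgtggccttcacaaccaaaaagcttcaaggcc
RBM6: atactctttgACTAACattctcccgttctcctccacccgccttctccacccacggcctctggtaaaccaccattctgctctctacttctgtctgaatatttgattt
HNRNPL: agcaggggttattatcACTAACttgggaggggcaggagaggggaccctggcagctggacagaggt
TIA1: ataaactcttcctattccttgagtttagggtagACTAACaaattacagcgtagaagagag
RBM39: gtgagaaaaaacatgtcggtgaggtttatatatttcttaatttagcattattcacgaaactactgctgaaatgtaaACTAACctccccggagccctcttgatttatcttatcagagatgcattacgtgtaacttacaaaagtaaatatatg
LUC7L2: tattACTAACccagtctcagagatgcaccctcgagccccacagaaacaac
U2AF2: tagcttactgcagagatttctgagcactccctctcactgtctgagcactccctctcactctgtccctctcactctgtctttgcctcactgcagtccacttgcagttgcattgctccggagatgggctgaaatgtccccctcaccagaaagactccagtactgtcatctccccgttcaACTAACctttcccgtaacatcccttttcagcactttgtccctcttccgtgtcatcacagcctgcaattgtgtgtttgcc
CELF1: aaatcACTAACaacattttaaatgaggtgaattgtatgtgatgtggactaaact
HNRNPH1: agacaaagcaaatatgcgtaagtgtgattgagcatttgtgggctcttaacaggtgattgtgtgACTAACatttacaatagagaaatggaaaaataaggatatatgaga
RBFOX2: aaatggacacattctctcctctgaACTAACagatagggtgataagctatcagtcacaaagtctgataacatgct
PTBP1: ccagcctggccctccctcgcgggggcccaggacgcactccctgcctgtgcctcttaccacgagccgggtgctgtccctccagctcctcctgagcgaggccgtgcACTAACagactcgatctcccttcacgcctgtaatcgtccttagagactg

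Each of these 12 peaks held the hexamer 1 time, and none of them held ACTAAT. In 2 of them, those of U2AF2 and HNRNPH1, a TAAC or TAAT lay between 1 and 20 nt from the hexamer, the spacing of a bipartite QKI site. Over all 26 ACTAAC sites of the 297 peaks, 15 (57.7%) started within 25 nt of the peak centre, with a median offset of -18.0 nt and a range from -74 to 50 nt. The share that peak width alone would give was not worked out, so centring of the hexamer was not tested.

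A further pair of sites lay in a 3′UTR or past the canonical 3′ end and is shown as the hexamer with 10 bases on each side. The HNRNPK site (chr9:86584066-86584091, minus strand) belonged to the fourth tallest of all the peaks, at a height of 280. The HNRNPA2B1 site (chr7:26228061-26228086, minus strand) belonged to its tallest peak, at 112. Both were chosen for display after their values were seen.
HNRNPK: gcgtgcaaaaACTAACattgaaattt
HNRNPA2B1: ttagtaatgcACTAACactggcttgt

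Of the 55 genes, 39 (70.9%, interval 57.9 to 81.2) held at least 1 peak, while 4748 of 20149 protein-coding genes did (23.6%). At least 5 peaks lay in 22 of the 55 (40.0%), against 6.29% of protein-coding genes. The median was 5 peaks among the 39 genes and 2.0 among all protein-coding genes with a peak. Per length, the 55 genes held 1.15 peaks per 10 kb of span and all protein-coding genes 0.161.

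The listed genes were of ordinary length, with a median span of 25.2 kb against 27.2 kb for protein-coding genes. Among genes of over 10 and up to 25 kb, 16 of 18 listed genes (88.9%) and 14.8% of all coding genes held a peak. Among those of over 25 and up to 50 kb the values were 12 of 18 (66.7%) and 26.4%, and among those of up to 10 kb, 3 of 9 (33.3%) and 3.97%. The amount of RNA made from each gene was not measured in these files. A gene without a peak can therefore not be told apart from a gene with little RNA, and the part of RNA amount in the shares above was not tested.

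**Figure D1:**
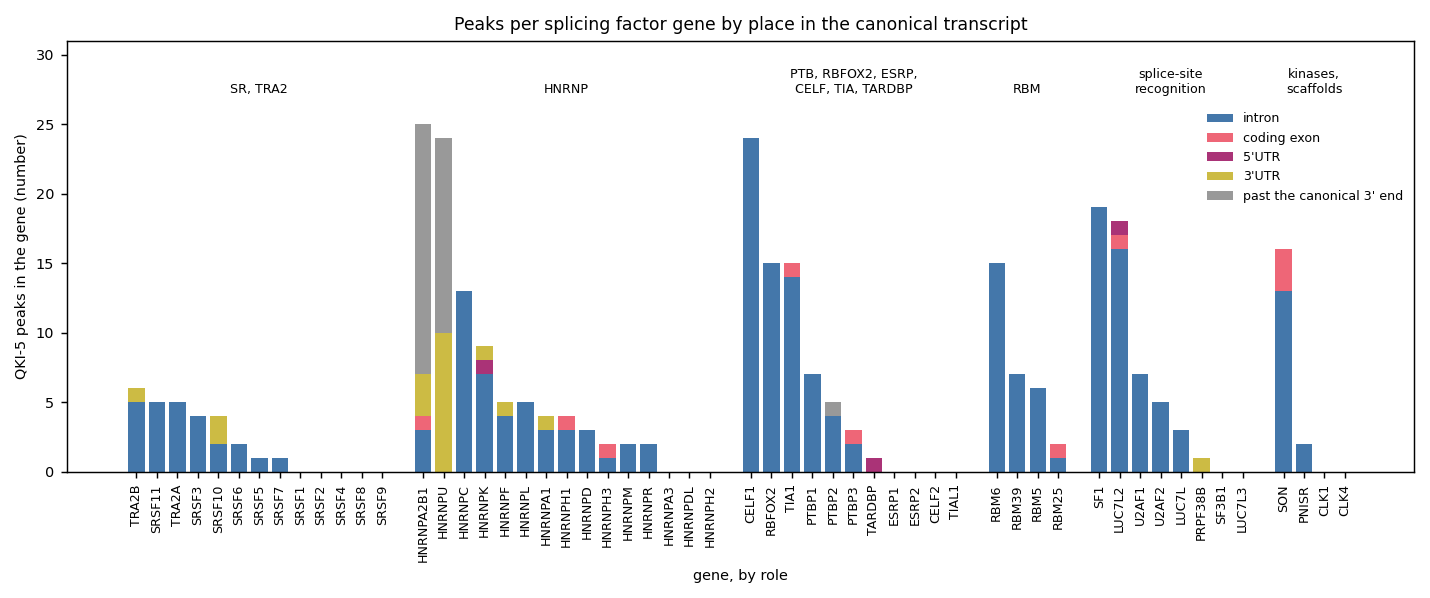
Number of QKI-5 peaks in each of the 55 splicing factor genes (y axis), grouped by role and ordered by number within a role, with colours for the place of each peak centre in the canonical transcript. HNRNPA2B1 (25), HNRNPU (24) and CELF1 (24) were highest for peaks as called (11, 9 and 17 with peaks within 100 nt merged), 16 genes were at 0, and the grey peaks of HNRNPA2B1 and HNRNPU lay past the canonical 3′ end.

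The 16 genes without a peak were spread over the roles, apart from the RBM genes, of which 4 of 4 held peaks. SR proteins without a peak were SRSF1, SRSF2, SRSF4, SRSF8 and SRSF9. Of the HNRNP genes, HNRNPA3, HNRNPDL and HNRNPH2 held none. The others were ESRP1 and ESRP2 (splicing regulators of epithelial cells), CELF2, TIAL1, the branch-site factor SF3B1, LUC7L3, and the kinases CLK1 and CLK4, which phosphorylate SR proteins. Their spans had a median of 18.5 kb, against 27.3 kb for the genes with a peak, and ran from 3.22 kb to the 538 kb of CELF2. Reads of low mapping quality were removed before peaks were called, so genes with close copies elsewhere in the genome can be under-represented.

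Among the SR and TRA2 genes, 8 of 13 held 28 peaks, and none of those peaks was above 59. TRA2B, a partner of SR proteins at exonic enhancers, held 6 peaks at heights from 15 to 27, of which 5 lay in intron 1, each inside an exon of a retained_intron transcript (the class GENCODE gives to transcripts that keep intron sequence). Its paralog TRA2A held 5, with the tallest at 45 in intron 1. SRSF11 held 5 (16 to 37), 4 of them in intron 1.

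The single peaks of SRSF5 (59, intron 5) and SRSF7 (41, intron 5) were the tallest of any SRSF gene. SRSF3 held 4 peaks (10 to 23) and the only ACTAAC peak of the SR and TRA2 genes, at 23 in intron 3. SRSF10 held 4 (18 to 36), 2 of them in its 3′UTR, and SRSF6 held 2 (13 and 19).

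HNRNP genes held 98 peaks in 12 of 15 genes, 2.90 per 10 kb of span, the highest density of the 6 roles. HNRNPA2B1, an RNA-binding protein that takes part in exon skipping and RNA transport, held 25 peaks as called. When peaks within 100 nt were merged it held 11, fewer than the 17 of CELF1 and the 12 each of RBFOX2 and TIA1. Of the 25 peaks of HNRNPA2B1 as called, 18 lay between 733 and 3373 nt past the 3′ end of the canonical transcript, inside the gene span but in no annotated exon. They ran from 13 to 112 with a median of 29.5, and 2 of them held ACTAAC. The other 7 lay in intron 7, exon 8 and the 3′UTR, where the tallest reached 80.

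HNRNPU, a nuclear-matrix protein also known as SAF-A, held 24 peaks (9 merged) and none in an intron of its canonical transcript. Its 3′UTR held 10, with heights of 112 and 108 for a pair of neighbouring peaks. The other 14 lay 49 to 6047 nt past the canonical 3′ end, each in an exon of a retained_intron transcript, at heights from 15 to 85. Only 2 of the 24 held ACTAAC, both past the canonical 3′ end. HNRNPA2B1 and HNRNPU thus each held a run of peaks past the end of their canonical transcript. The run lay in no annotated exon in HNRNPA2B1 and in retained_intron exons in HNRNPU. These genes together gave 32 of the 33 peaks outside the canonical transcript, the last being 1 of PTBP2.

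HNRNPC, a protein that covers nascent RNA at uridine tracts, held 13 peaks (19 to 85), 6 in intron 1 and 7 in intron 2, and none with ACTAAC. HNRNPL held 5, all in intron 8, a 1080-nt intron. They had heights of 27, 13, 6, 13 and 118 in transcript order. The last, the ACTAAC peak printed above, had its centre 58 nt upstream of exon 9. HNRNPH1 held 4, at 23, 129, 29 and 89. The 129 lay in coding exon 5, the tallest peak in a coding exon. The 29, with ACTAAC, had its centre 38 nt downstream of exon 9 and reached back into that exon.

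The remaining HNRNP genes held few peaks. HNRNPF held 5 (21 to 43), HNRNPA1 held 4 (10 to 36), HNRNPD held 3 (14, 17 and 21, the last with ACTAAC), and HNRNPH3, HNRNPM and HNRNPR held 2 each, none above 25.

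HNRNPK, a protein that binds cytidine-rich RNA, is also the host of the microRNA gene MIR7-1, which lies in its intron 16. It held 9 peaks, at 25, 41, 11, 23, 207, 97, 76, 49 and 280 in transcript order. A run of 4 of them, falling from 207 to 49, lay within 341 nt of the 721-nt intron 16. The centre of the 207 lay 190 nt upstream of the MIR7-1 hairpin gene (chr9:86584663-86584772, minus strand, 110 nt), and that of the 97 lay 84 nt upstream. The 76 and the 49 overlapped the hairpin by 54 and 55 nt.

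The 76 covered all 24 nt of miR-7-5p and the 49 covered all 22 nt of miR-7-1-3p, the opposite arm. The mature miR-7-5p is printed from RefSeq (GRCh38.p14), with its seed (bases 2 to 8) in capitals, because a peak covers it. None of the 4 peaks of intron 16 held ACTAAC. In another protein-coding transcript of HNRNPK this intron is part of an exon, so reads from the host mRNA and from the microRNA precursor cannot be told apart.
hsa-miR-7-5p: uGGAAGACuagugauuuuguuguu

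Of the PTB, RBFOX2, ESRP, CELF, TIA and TARDBP genes, 7 of 11 held 70 peaks, at 0.531 per 10 kb of their long spans. CELF1, which binds GU-rich RNA, held 24 peaks, 22 of them in its 52059-nt intron 1. Its tallest, at 329, was the tallest of all 297, and the others ran from 12 to 99. Its 3 ACTAAC peaks were low, at 17, 27 and 34.

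TIA1, which helps U1 snRNP to bind weak 5′ splice sites, held 15 peaks (15 to 104), 6 of them in intron 1 and 5 in intron 7, with the tallest in intron 6 and with ACTAAC. RBFOX2, an exon regulator with a span of 290 kb, held 15 (13 to 59), all intronic, 7 in intron 2 and 4 in intron 11.

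PTBP1, the polypyrimidine tract-binding protein, held 7 peaks, at 43, 12, 25, 36, 57, 20 and 22 in transcript order. The first 6 lay in intron 10, within 902 nt of its 1312 nt, and that intron is followed by an exon of 34 nt. Each of these 6 lay inside an exon of a retained_intron transcript. Its neural paralog PTBP2 held 5, with 1 tall peak of 111 in intron 8 and the others from 18 to 28. PTBP3 held 3 (21, 22 and 34), and TARDBP held 1, at 18, in its 5′UTR.

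Among the RBM genes, RBM5 and RBM6 are neighbours on chromosome 3 and both act as regulators of exon choice. RBM5 held 6 peaks, at 303, 11, 21, 13, 59 and 19. The 303, with ACTAAC, had its centre 67 nt downstream of exon 8, alone in its intron, and the other 5 lay within 783 nt of intron 17. RBM6 held 15 (8 to 192), 14 of them in the 48731-nt intron 6. Its tallest, at 192, and a second, at 60, held ACTAAC.

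RBM39, a partner of U2AF2, held 7 peaks, of which 5 lay in intron 2 at 70, 47, 22, 20 and 19 in transcript order. The 70 held ACTAAC, and its centre lay 76 nt downstream of exon 2. RBM25 held 2, at 21 and 28.

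SF1, the branch point-binding protein, belongs to the same STAR family as QKI and binds a related sequence. It held 19 peaks in 14181 nt, 13.4 per 10 kb, the highest density of the 55 genes. All lay in introns 2 and 3. Of these, 14 lay within 2546 nt of the 2992-nt intron 2, at heights up to 310 and with a median of 57.0. Its 4 tallest, at 310, 249, 196 and 172, all lay in intron 2, and of the 19 only the 249 held ACTAAC. When peaks within 100 nt were merged, 7 remained.

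The subunits of U2AF, which recognises the 3′ splice site, each held peaks in a single intron. U2AF1, which reads the terminal AG, held 7, at 44, 28, 14, 35, 17, 39 and 25, all in intron 1. U2AF2, which reads the polypyrimidine tract, held 5, at 24, 25, 19, 35 and 26, all in the 987-nt intron 6. In each gene 1 peak held ACTAAC.

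LUC7L2, a U1 snRNP-associated protein, held 18 (5 to 45), 16 of them in intron 1. Its 2 ACTAAC peaks, at 45 and 20, both lay in that intron. LUC7L held 3 (13, 28 and 53), and PRPF38B held 1, at 29, in its 3′UTR and with ACTAAC. In the last role, SON, a large nuclear-speckle protein, held 16 peaks (6 to 37), 13 of them in intron 8 and 3 in coding exon 3, where 1 held ACTAAC. PNISR held 2, at 25 and 30, both in intron 1.

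**Figure D2:**
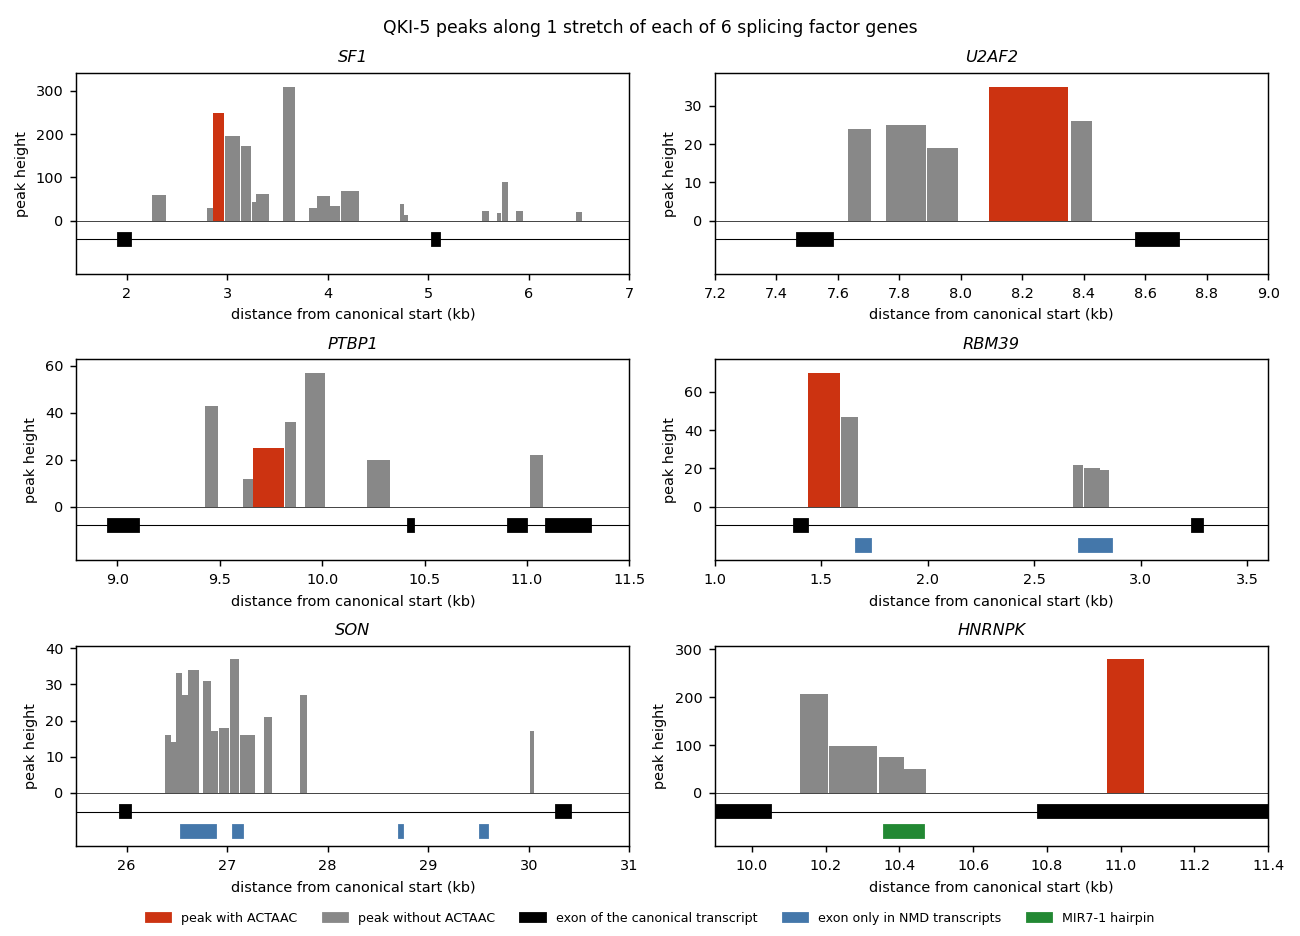
Peak height (y axis) against distance from the canonical start in kb for 6 splicing factor genes, each panel showing 1 stretch with its own scales, with bar width equal to peak width (genes chosen after their values were seen). Peaks fill introns of SF1, U2AF2 and PTBP1 and run into the MIR7-1 hairpin in HNRNPK. In RBM39 and SON they sit on or beside the exons marked as only in NMD transcripts. Those are exons of nonsense-mediated decay transcripts that overlap no exon of a protein-coding transcript.

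Exons of nonsense-mediated decay transcripts that overlapped no exon of a protein-coding transcript of the same gene were examined next. Exons of other transcript classes, such as retained_intron, could overlap them and did so at peaks of SRSF6, RBM39, LUC7L2, HNRNPU and SON. Of the 55 genes, 30 had such an exon and 6 held a peak on one (20.0%), while 1.71% of the 4387 coding genes with such an exon did. Of the 30, 24 held at least 1 peak anywhere, while 23.6% of all protein-coding genes did. The shares on these exons were not matched for this. How many such exons are annotated also differs between genes, and its part was not tested. In all, 18 of the 297 peaks (6.06%, interval 3.87 to 9.38) touched such an exon, against 0.634% of peaks in all coding genes. Of the 18, 7 came from SON and 4 from RBM39, so the share rested largely on few genes. Their heights ran from 11 in LUC7L2 to 85 in HNRNPU, and none of the 18 held ACTAAC.

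SON contributed 7 of the 18. In its intron 8, a 355-nt exon (chr21:34941882-34942236) was touched by 5 peaks of 17 to 34, and a 104-nt exon (chr21:34942401-34942504) by 2, of 37 and 16. Each of these exons belonged to 1 annotated nonsense-mediated decay transcript. RBM39 contributed 4. A 73-nt exon of its intron 2 (chr20:34328447-34328519), present in 9 nonsense-mediated decay transcripts, was touched by the peak of 47, and a 155-nt exon of the same intron (chr20:34327315-34327469) by those of 22, 20 and 19.

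In SRSF6 both peaks had their centre in a 268-nt exon of intron 2 (chr20:42087793-42088060). LUC7L2 had 2 peaks on a 75-nt exon of intron 1, TIA1 had 1 on a 66-nt exon of intron 6, and HNRNPU had 2 past its canonical 3′ end, on exons of 69 and 4707 nt. Among the other SR genes, measured from the nearest peak edge, the SRSF7 peak lay 119 nt from such an exon. The fifth SRSF11 peak lay 87 nt and the ACTAAC peak of SRSF3 288 nt from one. Within 250 nt, the count rose to 31 peaks in 8 genes (10.4%, against 1.56% of peaks in all coding genes).

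Over all 297 peaks, 231 (77.8%, interval 72.7 to 82.1) lay in introns of the canonical transcript, 10 in coding exons, 3 in 5′UTRs, 20 in 3′UTRs and 33 (11.1%) outside it. Over all coding genes the intronic share was 84.8% and the share outside 6.18%. Such shares by place over all coding genes, also those for nonsense-mediated decay exons, counted a peak once for each coding gene that held it. The intronic share rested on the choice of transcript: with all transcripts of the gene and exons ranked before introns it was 61.3%.

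Of the 231 intronic peaks, 37 (16%, interval 11.8 to 21.3) lay within 250 nt of an exon, against 9.47% over all coding genes. Of these 37, 26 lay downstream of the exon (11.3% of the intronic peaks, interval 7.80 to 16, against 5.64% over all coding genes). The other 11 lay upstream of it (4.76%, interval 2.68 to 8.32), and the 3.83% over all coding genes lay inside that interval. Far from exons the order was the other way round, since 21.2% of the intronic peaks of the listed genes and 36.0% of those of all coding genes lay over 5000 nt away. Introns were not matched for length in this comparison. The first intron held 82 of the 231 (35.5%), against 25.7% over all coding genes. Many of the 82 came from few genes, with 22 in CELF1 and 16 in LUC7L2, so the share is not a trait of the listed genes in general.

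Inside an exon of a retained_intron transcript lay 44 of the 231 intronic peaks (19%, interval 14.5 to 24.6), against 6.70% over all coding genes. Among them were the 6 peaks of PTBP1 intron 10, the 5 of TRA2B intron 1 and the 5 of RBM39 intron 2. How many transcripts are annotated differs between genes, and its part in this share was not tested. Among the 22 listed genes with at least 5 peaks, the exon or intron with the most peaks held a median of 76.8% of them, against 70.0% among the 1267 coding genes with at least 5. All peaks lay in 1 intron in HNRNPL, U2AF1 and U2AF2, 3 of 22 genes (13.6%), against 20.1% of the 1267.

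**Figure D3:**
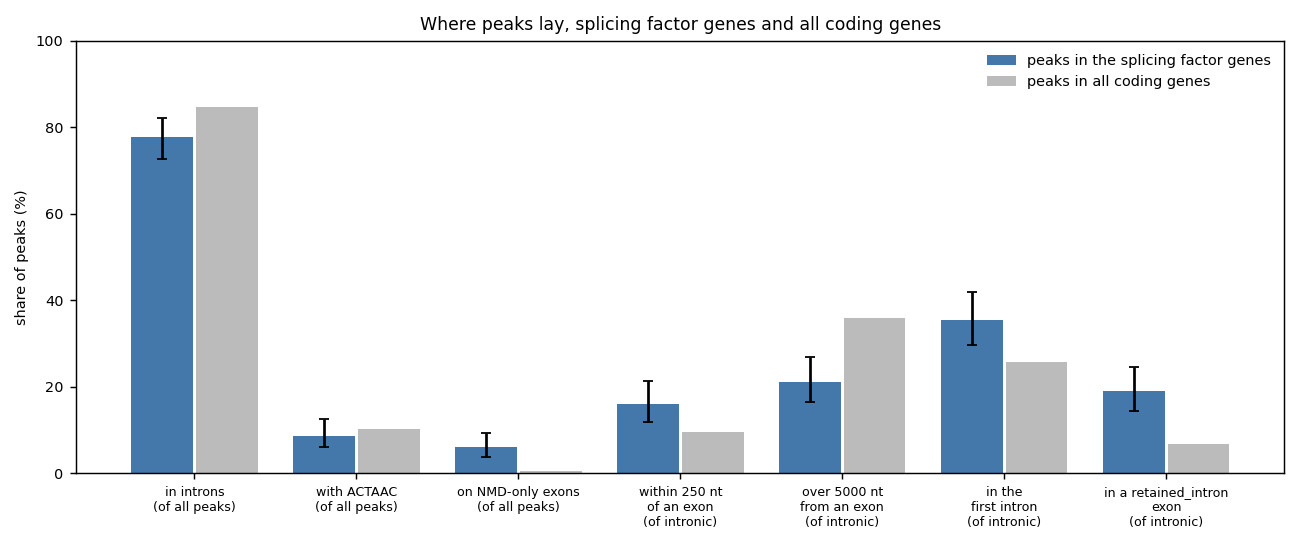
Share of peaks (y axis, %) in each kind of place for the 297 peaks of the splicing factor genes (blue, with 95% Wilson intervals) and for peaks in all coding genes (grey), with the denominator under each pair. The listed genes were at 6.06% against 0.634% on the exons marked NMD-only, and at 8.75% against 10.3% for ACTAAC. Of the 18 peaks on NMD-only exons, 7 lay in SON and 4 in RBM39. For the grey bars a peak was counted once for each coding gene that held it. NMD-only exons are those of nonsense-mediated decay transcripts that overlap no exon of a protein-coding transcript.

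The hexamer lay in 26 of the 297 peaks (8.75%, interval 6.04 to 12.5). Of the 20913 distinct peaks in all coding genes 10.5% held it, a value inside that interval. The share was 10.3% when a peak was counted once for each coding gene that held it. Counted by gene, 20 of the 55 (36.4%) held such a peak, while 7.83% of coding genes did. The same letters on the opposite strand lay in 2 peaks (0.673%). In windows of the same width 500 nt from the peak, 7 of 297 on the upstream side (2.36%) and 5 on the downstream side (1.68%) held the hexamer. With ACTAAT also allowed, 41 peaks (13.8%) held a site, against 14.3% over all coding genes.

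The median height was 25 over the 297 peaks and 23 over all peaks in coding genes. A height of at least 100 was reached by 16 (5.39%), against 3.03% of peaks in coding genes. Peaks with ACTAAC had a median of 33.0 (range 17 to 303), against 24 for the 271 without (range 5 to 329), and over all coding genes the medians were 27 and 23. Of the 16 tall peaks, 7 (43.8%) held ACTAAC and 9 (56.2%) ACTAAC or ACTAAT, against 25% and 31.1% of the 633 in all coding genes. With only 16 peaks and no interval, a difference in these shares was not tested.

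**Figure D4:**
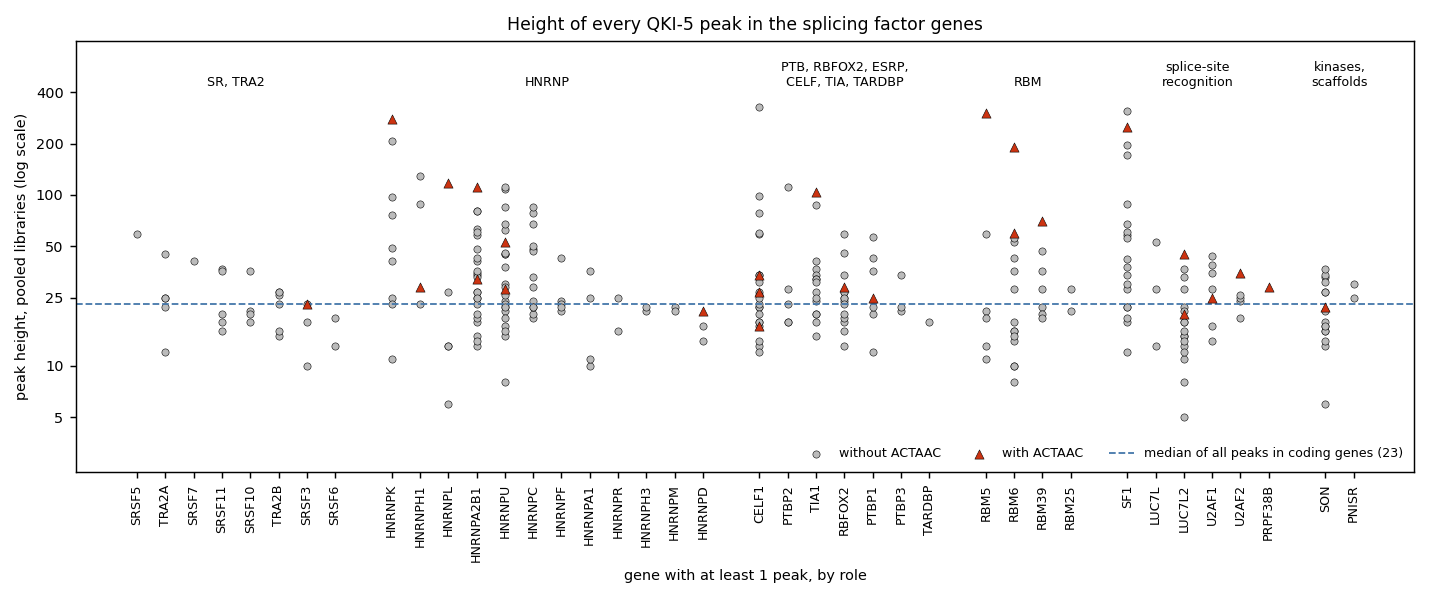
Height of each of the 297 peaks (y axis, log scale, pooled libraries) for the 39 genes with a peak, grouped by role, with red triangles for peaks that hold ACTAAC and a dashed line at 23, the median of all peaks in coding genes. RBM5 and HNRNPK had their tallest peak with ACTAAC, CELF1 and SF1 without it.

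The tallest peaks of CELF1 (329, intron 1) and SF1 (310, intron 2) were the only ones above 300 without ACTAAC. The files hold no repeat annotation. Repeated sequence was therefore sought, after these peaks had been read, as a word of 16 bases (all 4 letters present) that occurs at least 100 times on chromosome 21, on either strand. The CELF1 and SF1 peaks held words with up to 2009 and 1905 copies there. Of the other 14 peaks of at least 100, none passed, and all but the RBM5 peak reached 5 copies or fewer. The RBM5 peak, the tallest with ACTAAC, held a word with 43 copies. It only fell short of the set cut of 100 copies, so its sequence was not shown to be unique. Over all 297 peaks, 33 (11.1%, interval 8.02 to 15.2) in 18 genes held such a word, against 13.2% of peaks in all coding genes, and none of them held ACTAAC. CELF1 had 7 such peaks and HNRNPC 4, the most of any gene. Reads from repeats map less surely than others, and the part of mapping in these heights was not tested.

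Other genes of the splicing and decay machinery were described by the same rule. Of 39 core spliceosome (snRNP) genes, 12 (30.8%, interval 18.6 to 46.4) held a peak and 1 held at least 5, and they had 0.225 peaks per 10 kb. Of 14 genes of the exon junction complex and nonsense-mediated decay, 7 (50.0%, interval 26.8 to 73.2) held a peak, with 1 to 3 peaks each. Among 49 other RNA-binding splicing regulators, 25 (51.0%, interval 37.5 to 64.4) held 300 peaks, at 1.15 per 10 kb, the same density as in the 55 genes, and 15 (30.6%) held at least 5. They included MATR3, a nuclear-matrix protein, with 76 peaks, ZNF638 with 47, and PCBP2, a relative of HNRNPK, with 40 and a tallest peak of 565.

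**Figure D5:**
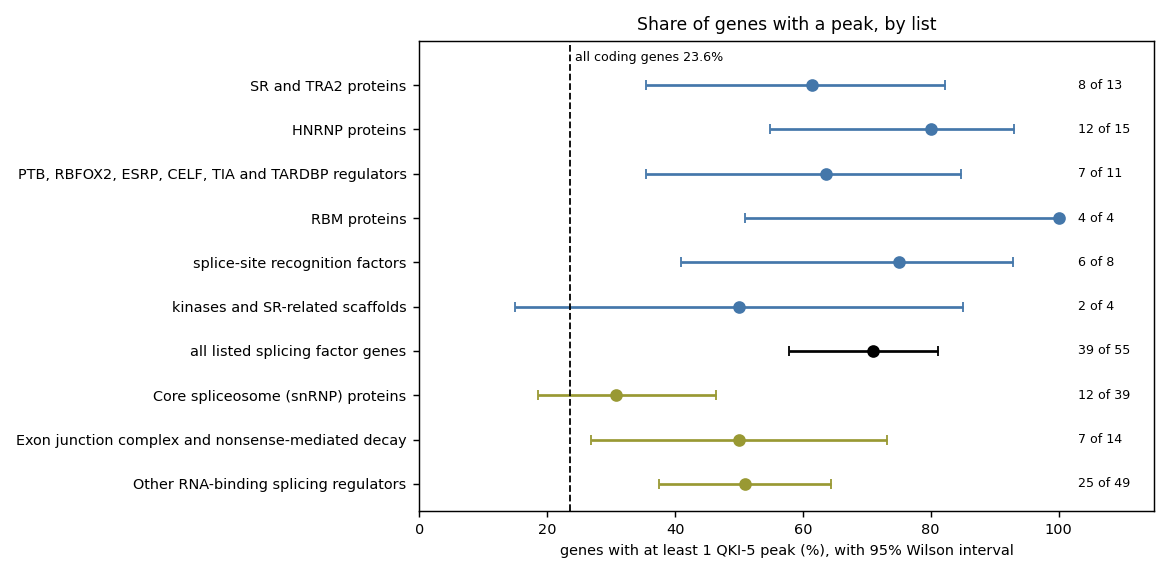
Share of genes with at least 1 QKI-5 peak (x axis, %) for the 6 roles (blue), all 55 genes (black) and 3 other lists (olive), with 95% Wilson intervals and a dashed line at 23.6%, the share of all protein-coding genes. The intervals of the kinases and scaffolds and of the core spliceosome include that line, and those of the other lists lie above it.

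Some of the spans are shared with other annotated genes on the same strand. The centre of 53 of the 297 peaks lay in such a gene as well: all 15 of TIA1 in C2orf42, all 18 of LUC7L2 in the readthrough gene FMC1-LUC7L2, and all those of U2AF1, HNRNPL, HNRNPA1 and SRSF6 in unnamed or non-coding genes, besides the 2 of HNRNPK in MIR7-1. With such peaks left out, 33 of the 55 genes held a peak, and 20.6% of coding genes.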

How the data were processed

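Peaks were taken from 1 deposited list of 24037 regions on hg19. Per the methods and the submitters' processing notes, the authors trimmed reads with cutadapt 1.3, mapped them with TopHat2 2.0.10, collapsed duplicates by position and molecular barcode, dropped alignments of mapping quality under 10, pooled the libraries and called peaks on each strand with MACS2 2.1.1.20160309 against size-matched input (q of 0.05, at least 3-fold). The deposited list has no header. Its column of whole numbers was read as a signal, the peak height in the pooled libraries, from the heading the authors gave such a column in a supplement, and no scaling of it is given in the sources used here. The 55 genes, their roles and the other lists were chosen with earlier results of these data known.

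Peaks were placed in GENCODE release 44 (mapped to GRCh37) by their centre, on the gene's strand, in spans of 20149 protein-coding genes, and classed by the Ensembl canonical transcript. The 18 mitochondrial peaks were left out. Every member was named, with heights in full for the members with the most or tallest peaks. Motifs were read from GRCh37 with pysam 0.24.0 (Python 3.11.15, samtools 1.23.1). Lookups were tested on made-up intervals. A few items are not reported here.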

Additional observations from a re-analysis of the deposited data

How the results depend on the processing

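No paired analysis was possible because the libraries were pooled before peaks were called, and for the same reason no library could be left out. Of the 27 alternatives, 16 stayed within 1.5 times the reported count or within the 95% interval of the reported share or median. With peaks at or above the 90th percentile of height, 16 of the 55 genes held a peak (4.52% of coding genes). Merging peaks within 100 nt left 174 peaks, and a minimum at the median height left 173. The intronic share was 52.2% with all transcripts and promoters ranked first and 61.3% with all transcripts of the gene and exons first. The share with ACTAAC was 13.8% with ACTAAT added, 15.5% with merged peaks, 12.5% with 25 nt added on each side and 12.7% for a minimum at the median height. The share of intronic peaks near an exon was 6.06% within 100 nt and 35.1% within 500 nt. Within 250 nt of a nonsense-mediated decay exon lay 10.4% of peaks (1.56% over all coding genes), and 4.04% (0.458%) had their centre inside one. Leaving out the peaks with a repeated word, an alternative chosen after seeing the data, left 264 peaks, 39 genes and an ACTAAC share of 9.85%.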
